A study of Mus musculus with 9 samples.

Results

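Interleukin receptor genes were examined in RNA-seq libraries of 9 mouse lymphomas. The 10 genes are Il9r, Il4ra, Il21r, Il2ra, Il2rb, Il2rg, Il6ra, Il7r, Il10ra and Il13ra1, out of 41128 in the count table, and all 10 passed edgeR's filter on low counts. The set was assembled around Il9r, which had been selected on its difference between the genotypes in these same libraries, so the genotype values of the receptors are given below as a description without a test. The libraries came from 3 Bcl6 tumors (IµBcl6; Smc3 wt/wt; Cγ1 wt/cre) and 6 Smc3/Bcl6 tumors (IµBcl6; Smc3 wt/-; Cγ1 wt/cre), 1 library per tumor. Both genotypes carried the IµBcl6 transgene, which keeps the germinal center repressor Bcl6 on in B cells, and both carried the Cγ1-Cre allele, which is active in B cells entering the germinal center reaction. The genotypes differed in Smc3, the ATPase subunit of cohesin, with both alleles intact in Bcl6 mice and 1 allele deleted by Cre in Smc3/Bcl6 mice. Ages of the mice were not given in the sources used here.

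Interleukin receptors are assembled from shared and private chains. Il2rg encodes the common gamma chain, which pairs with the chains encoded by Il2rb, Il4ra, Il7r, Il9r or Il21r to receive IL-2, IL-15, IL-4, IL-7, IL-9 or IL-21, and Il2ra encodes the chain that raises affinity for IL-2. Il13ra1 pairs with Il4ra in the receptor for IL-13, Il6ra binds IL-6 and signals through gp130, and Il10ra is the ligand-binding chain for IL-10. All of these receptors signal through JAK kinases and STAT transcription factors. In lymphoid tissue, Il7r and Il2rb are familiar from T and NK cells, Il2ra from activated and regulatory T cells, Il4ra and Il21r from B cells that receive T-cell help in the germinal center, and Il9r from memory B cells, mast cells and some T cells.

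The windows before the transcription start are shown for Il9r, the receptor around which the set was built, and for Il2rg and Il21r, whose levels were related to marker genes below. Each is the 250 bases before the RefSeq start, on the gene's own strand, from the RefSeq table for GRCm38.p6. That table held entries for 8 of the 10 receptors, without Il2rb and Il10ra. Capitals mark matches on either strand to 4 motifs: TTCNNNGAA, the GAS element read by STAT factors, TGTGGT, read by RUNX factors, AGATAA, read by GATA factors, and CCGGAAG, read by ETS factors. No 2 marked matches overlap.

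Il9r, chr11:32200280-32200529, minus strand: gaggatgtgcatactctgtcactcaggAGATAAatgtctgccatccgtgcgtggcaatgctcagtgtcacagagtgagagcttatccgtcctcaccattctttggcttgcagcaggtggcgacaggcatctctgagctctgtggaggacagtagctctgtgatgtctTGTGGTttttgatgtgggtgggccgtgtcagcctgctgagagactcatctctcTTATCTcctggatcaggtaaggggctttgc
Il2rg, chrX:101268256-101268505, minus strand: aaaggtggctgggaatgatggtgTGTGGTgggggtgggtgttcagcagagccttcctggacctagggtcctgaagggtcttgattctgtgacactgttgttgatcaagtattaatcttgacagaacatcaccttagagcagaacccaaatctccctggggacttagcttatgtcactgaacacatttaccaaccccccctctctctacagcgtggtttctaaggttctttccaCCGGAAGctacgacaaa
Il21r, chr7:125603179-125603428, plus strand: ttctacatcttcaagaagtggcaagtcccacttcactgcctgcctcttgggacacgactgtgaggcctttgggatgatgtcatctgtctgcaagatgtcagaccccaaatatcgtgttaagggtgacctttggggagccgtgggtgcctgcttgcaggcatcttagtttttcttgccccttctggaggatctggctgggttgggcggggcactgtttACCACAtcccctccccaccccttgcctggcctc

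The Il9r window held the GATA motif at 2 places, starting 223 and 30 bases before the start, and the RUNX motif 83 bases before it. The Il2rg window held RUNX and ETS motifs, and the Il21r window held the RUNX motif. Among windows of the same length before 32851 RefSeq starts, 9.99% held the GATA motif, 14% the RUNX motif, 6.91% the ETS motif and 7.02% the GAS motif, so each is common by its letters alone.

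Total counts were between 10156728 and 17774577 per tumor. Smc3 itself had between 88.1 and 126 CPM (read counts relative to the TMM-scaled library size) in Bcl6 tumors and between 27.9 and 111 CPM in Smc3/Bcl6 tumors, where the second lowest tumor had 89.7 CPM, so in these libraries the genotypes rest on the labels. The study also measured Smc3 by RT-qPCR in tumors of both genotypes and reports that its expression was reduced in Smc3/Bcl6 tumors. That assay was not analysed here. Smc3/Bcl6 tumor 2 was the tumor with 27.9 CPM and stood apart from the other libraries. Its TMM factor was 0.693, against 0.964 to 1.1 in the other 8 tumors. Its counts fell with exon length relative to the other tumors, with a Spearman correlation across genes of -0.466 against -0.0303 to 0.273 elsewhere (genes are not independent replicates). Tumor 1 of each genotype was labelled as mesenteric lymph node, and the other 7 as lymph node without a site, whereas the paper describes every tumor as mesenteric, so the label may not mark a difference in tissue. All 13 B-cell markers were detected in every tumor, and the mean of their log2 CPM was between 7.66 and 9.48.

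Il9r, the IL-9 receptor chain, is on chromosome 11 (GRCm38, 32187541 to 32200279, minus strand). Its level was 47.3, 10.5 and 35.5 CPM in Bcl6 tumors 1, 2 and 3. In Smc3/Bcl6 tumors it ranged from 40.4 to 169.6 CPM with a median of 61.9. The genotypes overlapped, since Bcl6 tumor 1 was above 3 of the Smc3/Bcl6 tumors, while Bcl6 tumor 2 was the lowest of the 9 and Smc3/Bcl6 tumor 4 the highest. The means were 31.1 ± 18.8 CPM (SD, n = 3) and 77.7 ± 49.4 CPM (SD, n = 6), and the log2 fold change of Smc3/Bcl6 over Bcl6 was 1.32 (standard error 0.603). The study counted a gene as changed at an unadjusted p under 0.1 with a log2 fold change beyond 0.56 in either direction. Il9r passed both, but without Bcl6 tumor 2 its log2 fold change was 0.89 and it no longer did. Without Smc3/Bcl6 tumor 4 it was 0.92. In these bulk libraries, more cells with a transcript and more transcript per cell cannot be told apart.

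Il9r was the 1 receptor of 10 past those thresholds and higher in Smc3/Bcl6 tumors, a difference by which it was chosen, and 0 were lower. Over all 14057 genes tested, 1.25% were past the thresholds and higher, and 0.847% were past them and lower. None of the 10 receptors had groups that did not overlap, which held for 0.484% of all genes. Among all genes tested 0 had a Benjamini-Hochberg adjusted p under 0.05 by edgeR's quasi-likelihood test, and 74 had an unadjusted p under 0.05. Limma with a quality weight per tumor gave 0 and 1171, and DESeq2 gave 0 and 209. The median log2 fold change of the receptors was -0.20, with 3 positive and 7 negative values, beside a median of 0.06 over all genes, and 9 of the 10 were smaller than 2 of their standard errors.

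**Figure D1:**
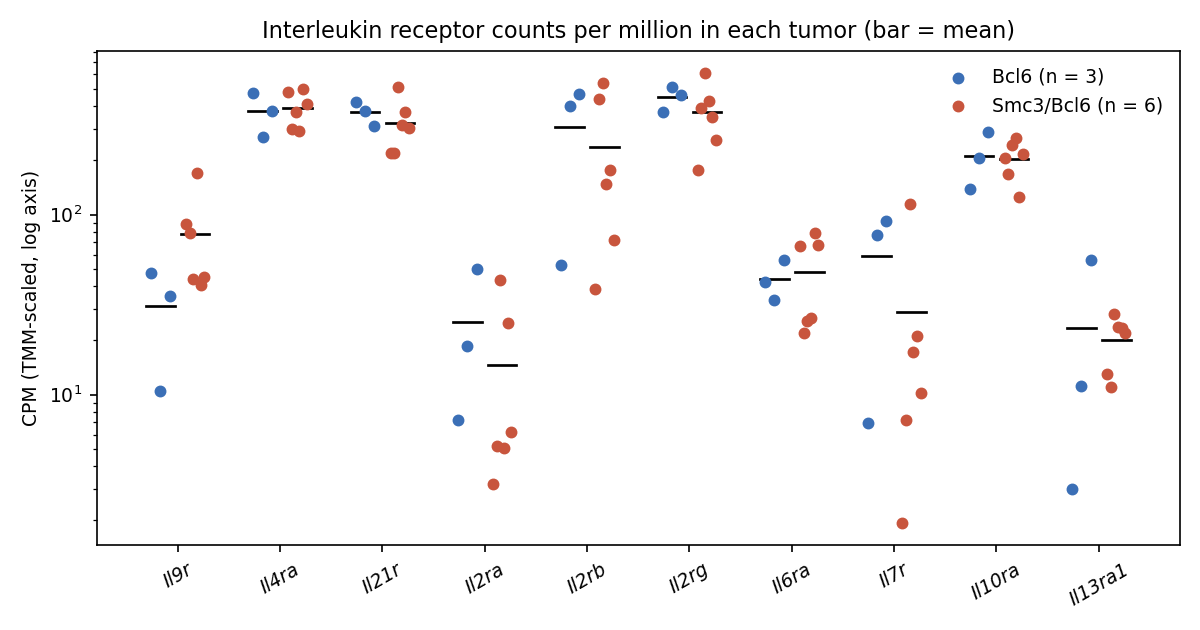
CPM (TMM-scaled, log axis) of the 10 receptor genes in 3 Bcl6 tumors (blue) and 6 Smc3/Bcl6 tumors (red), 1 point per tumor, with the mean of each group as a bar. The genotypes overlap for all 10 genes, Il4ra stays between 269 and 499.8 CPM, and Il7r ranges from 1.94 to 114 CPM.

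Among the chains that pair with the common gamma chain in B cells, Il4ra and Il21r were even across the tumors. They are neighbours on chromosome 7, Il4ra from 125552120 to 125579474 and Il21r from 125603429 to 125633570. Il4ra had 476, 269 and 377 CPM in the Bcl6 tumors and 291 to 499.8 CPM (median 391) in the Smc3/Bcl6 tumors. Its highest and lowest tumors differed 1.86-fold, the narrowest range of the 10, and the log2 fold change between genotypes was 0.07 (standard error 0.286). Il21r had 421, 376 and 312 CPM in the Bcl6 tumors and 221 to 509 CPM (median 307) in the Smc3/Bcl6 tumors. The Bcl6 values lay inside the Smc3/Bcl6 range, with a log2 fold change of -0.20 (standard error 0.308). No relation between the levels of Il4ra and Il21r was detectable over the 9 tumors (Pearson r 0.09, exact permutation p = 0.822, Spearman rho -0.17, exact permutation p = 0.678, r 0.16 without the 2 tumors farthest from the median).

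Il2rg, the common gamma chain, had 373, 514 and 463 CPM in Bcl6 tumors 1, 2 and 3. In Smc3/Bcl6 tumors it had 177 to 609.7 CPM with a median of 370.1, a range that holds all Bcl6 values, and the log2 fold change was -0.29 (standard error 0.362). Il2rb, the signalling chain for IL-2 and IL-15, was far more uneven. It had 52.5, 399 and 466 CPM in the Bcl6 tumors and 38.7 to 540.4 CPM (median 162) in the Smc3/Bcl6 tumors. Tumors 2 and 3 of both genotypes were the 4 highest, and replicate 1 of both genotypes the 2 lowest, so the 14-fold range lay mostly within the genotypes. The log2 fold change was -0.37 (standard error 0.853).

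Il2ra and Il7r, chains of the IL-2 and IL-7 receptors, were low in most tumors and high in a few. Il2ra had 7.23, 18.7 and 50.1 CPM in the Bcl6 tumors and 3.19 to 43.5 CPM (median 5.69) in the Smc3/Bcl6 tumors. Il7r had 6.97, 76.8 and 92.4 CPM in the Bcl6 tumors and 1.94 to 114 CPM (median 13.7) in the Smc3/Bcl6 tumors. Smc3/Bcl6 tumor 3 had the highest Il7r and the second highest Il2ra, and Smc3/Bcl6 tumor 1 the lowest of both. The log2 fold changes were -0.78 (standard error 0.888) for Il2ra and -1.04 (standard error 1.09) for Il7r, both smaller than the spread between tumors. With a block for the replicate number, on tumors 1 to 3 of each genotype, both were past the thresholds and lower, Il2ra at -1.10 (standard error 0.468) and Il7r at -1.67 (standard error 0.784), while Il9r was at 1.31 (standard error 0.576). The labels do not say that equal numbers mark paired tumors. Without Smc3/Bcl6 tumor 3, Il2ra was at -1.56 and Il7r at -2.41, also past the thresholds. Of all genes, 1.85% were past the thresholds and lower with the block and 2.27% without Smc3/Bcl6 tumor 3. T-cell markers stood beside these values. All 14 had negative log2 fold changes with a median of -0.66, also under every other scaling, though with 12 of 14 under the block and 11 of 14 without Bcl6 tumor 2. Over the 9 tumors 0 of them passed the thresholds, but 4 of 14 did with the block and 4 of 14 without Smc3/Bcl6 tumor 3. In those settings Il2ra and Il7r were past the thresholds and lower, but Il2rb, the receptor closest to T-cell markers below, was not. Il2rb was at -0.06 (standard error 0.353) with the block and -0.89 (standard error 0.842) without Smc3/Bcl6 tumor 3. With limma's quality weights, where the weight of Smc3/Bcl6 tumor 2 was 0.125, 14 of 14 T-cell markers passed. There Il2rb, Il2rg and Il7r were past the thresholds and lower too, beside 7.13% of all genes. The mean log2 CPM of the T-cell markers ran from 3.46 to 7.17 in Bcl6 tumors and from 1.8 to 7.26 in Smc3/Bcl6 tumors (a difference of -1.33, exact two-sided permutation p = 0.381). The difference was -0.65 with the block, -2.53 without Bcl6 tumor 1 and -0.68 without Bcl6 tumor 2. The part of the T-cell markers in the genotype values of Il2ra, Il2rb, Il2rg and Il7r was not tested.

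Il6ra, Il10ra and Il13ra1 are outside the gamma chain family. Il6ra had 42.3, 33.5 and 55.8 CPM in the Bcl6 tumors, and 21.9 to 79.1 CPM (median 46.7) in the Smc3/Bcl6 tumors. The Smc3/Bcl6 tumors fell on both sides of the Bcl6 tumors, tumors 2, 3 and 4 below and tumors 1, 5 and 6 above. Il10ra had 138, 206 and 289 CPM in the Bcl6 tumors and 125 to 266 CPM (median 211) in the Smc3/Bcl6 tumors, with -0.05 (standard error 0.313) as the log2 fold change. Il13ra1 had 3.00, 11.2 and 56 CPM in the Bcl6 tumors, the lowest and the highest of all 9, and 11.0 to 28.1 CPM (median 22.8) in the Smc3/Bcl6 tumors. The log2 fold change of Il13ra1 was -0.21 (standard error 0.707), and without Bcl6 tumor 3 it was 1.5 and past the thresholds. That of Il6ra was 0.13 (standard error 0.467).

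**Figure D2:**
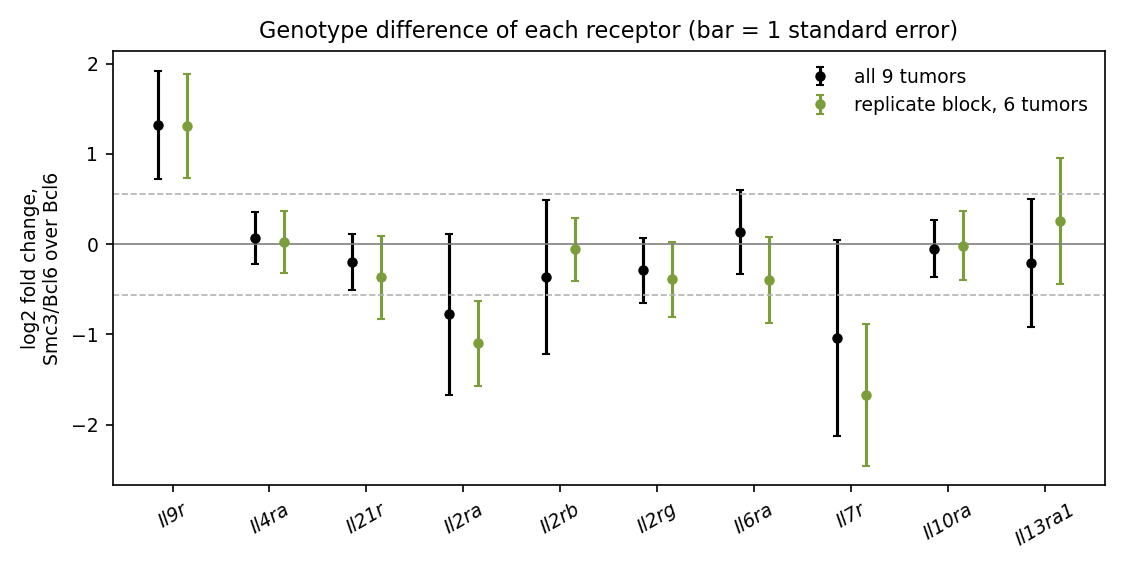
Log2 fold change of Smc3/Bcl6 over Bcl6 for each receptor with 1 standard error, from all 9 tumors (black) and from tumors 1 to 3 of each genotype with a block for the replicate number (green), where dashed lines are the fold threshold of 0.56 in either direction. Il9r is at 1.32 and 1.31, and Il7r moves from -1.04 to -1.67.

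Levels were compared between genes as CPM per kilobase of exon. Il2rg was highest at 166 ± 54.3 CPM per kilobase (SD, n = 9), above Il21r at 102 ± 27.9 in 9 of 9 tumors. Il21r was above Il4ra, at 64.3 ± 14.5, in 8 of 9 tumors. Il4ra, Il2rb at 60.5 ± 46.6 and Il10ra at 59.1 ± 15.8 CPM per kilobase did not differ beyond their spread. A gap followed: Il10ra was above Il9r in 9 of 9 tumors, by 2.52 ± 1.13 on the log2 scale (SD of the difference within tumors, n = 9). Il9r had 12.6 ± 9.38 CPM per kilobase, Il7r 8.29 ± 9.26, Il13ra1 5.73 ± 4.12, Il6ra 5.39 ± 2.46 and Il2ra 3.19 ± 3.12, and the differences between neighbours in this lower part of the order were within their spread.

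Each receptor was then related to 4 scores, the mean log2 CPM of 13 B-cell, 14 T-cell, 12 myeloid and 7 plasma cell markers, over the 9 tumors. NK-cell markers were not among them, so relations of the receptors to NK-cell markers were not tested. Of the 40 relations, 3 had an exact permutation p below 0.05 after Benjamini-Hochberg adjustment over the 40, for Pearson's r as for Spearman's rho, and 10 had an unadjusted p below 0.05 for each coefficient. The same p-values were also adjusted over all genes tested against a score, under which 1 receptor relation remained, Il2rb with T-cell markers. Of the genes outside each marker list, 0.669% passed for T-cell markers, and 0% for B-cell markers, 0% for myeloid markers and 0% for plasma cell markers. Within the 6 Smc3/Bcl6 tumors, 0 of 40 passed the adjustment and 6 had an unadjusted exact p below 0.05. The 2 tumors with the mesenteric label are too few for a value of their own, so r is also given for the other 7, as a split by label and not by known tissue. The permutations treat the 9 tumors as exchangeable and do not take the replicate number into account.

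Il2rb had the closest relation to the T-cell markers. Pearson's r was 0.95 (exact permutation p = 0.000287, adjusted over the 40 relations 0.00573, over all genes 0.0452) and Spearman's rho was 0.90 (exact permutation p = 0.00203, adjusted 0.0406). Only 0.605% of all genes had an r with the T-cell score as high. The r was 0.92 without the 2 tumors farthest from the median score, 0.96 within the Smc3/Bcl6 tumors, 0.96 in the 7 tumors without the mesenteric label and 0.95 without Smc3/Bcl6 tumor 2. Between tumors 1 to 3 of the genotypes, matched by number only, the block left 3 differences with an r of 0.77 and no test. The T-cell score itself spanned 5.46 log2 units, from 1.8 in Smc3/Bcl6 tumor 1 to 7.26 in Smc3/Bcl6 tumor 3, with tumors 2 and 3 of both genotypes in the upper part and its largest gap taking 38.0% of the range.

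Il2rg was related to the same markers, but the call changed with the scaling and with single tumors. Its r was 0.83 (exact permutation p = 0.00186, adjusted over the 40 relations 0.0248) and its rho 0.88 (exact permutation p = 0.00308, adjusted 0.0410). Adjusted over all genes the p was 0.101, and 3.94% of genes had an r as high. The r was 0.60 without the 2 farthest tumors, 0.83 within the Smc3/Bcl6 tumors and 0.77 in the 7 tumors without the mesenteric label. Leaving out any of Bcl6 tumors 1, 2 or 3 or Smc3/Bcl6 tumors 1, 3 or 6 gave r between 0.76 and 0.86, with adjusted exact permutation p between 0.0603 and 0.176. With library totals in place of TMM the r was 0.76 (exact permutation p adjusted 0.133), and with the length trend subtracted 0.67 (exact permutation p adjusted 0.17). The mean log2 CPM of NK-cell markers was also lowest in Smc3/Bcl6 tumor 1 (-0.00872) and highest in Smc3/Bcl6 tumor 3 (4.93). These tumors were the lowest and highest in Il2rg, Il2rb and the T-cell score. Smc3/Bcl6 tumor 4, with 427 CPM of Il2rg, had a T-cell score of 3.41 and an NK-cell score of 4.51. The remaining NK-cell scores were 2.38, 4.54 and 3.86 in Bcl6 tumors 1, 2 and 3. They were 3.53, 2.79 and 2.47 in Smc3/Bcl6 tumors 2, 5 and 6. Whether Il2rg or Il2rb followed NK-cell markers more closely than T-cell markers was not tested. The part of NK-cell markers in the values of Il2rb and Il2rg was not tested either.

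Il7r and Il2ra pointed the same way without passing the adjustment. For Il7r, r with the T-cell score was 0.81 (exact permutation p = 0.0129, adjusted 0.103) and rho 0.80 (exact permutation p = 0.0138, adjusted 0.111), with r of 0.69 without the 2 farthest tumors, 0.70 within the Smc3/Bcl6 tumors and 0.95 without Smc3/Bcl6 tumor 2. For Il2ra, r was 0.78 (exact permutation p = 0.0205, adjusted 0.103) and rho 0.77 (exact permutation p = 0.0214, adjusted 0.143), with r of 0.67, 0.72 and 0.94 in the same subsets. In both, the tumor that stood apart lay below the trend of the others. In the 7 tumors without the mesenteric label, r with the T-cell score was 0.65 for Il7r (exact permutation p = 0.13). For Il2ra it was 0.68 (exact permutation p = 0.105). Il2rb also had an r of 0.77 with myeloid markers (exact permutation p = 0.00831, adjusted 0.0831, with rho 0.70, exact permutation p = 0.0433, adjusted 0.173), which was 0.24 without Bcl6 tumor 1 and Smc3/Bcl6 tumor 1, the farthest on that score.

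Il21r ran against the plasma cell markers, a list that includes Xbp1 and Prdm1, regulators of antibody secretion, and Jchain. Its r was -0.94 (exact permutation p = 0.000262, adjusted over the 40 relations 0.00573) and its rho -0.93 (exact permutation p = 0.00075, adjusted 0.030). Only 0.0142% of all genes had an r with this score as low, and the exact permutation p adjusted over all genes was 0.6. The r was -0.90 without the 2 farthest tumors, -0.95 within the Smc3/Bcl6 tumors, -0.94 in the 7 tumors without the mesenteric label and -0.91 without Smc3/Bcl6 tumor 2. It depended on the scaling: with library totals in place of TMM the r was -0.68 (exact permutation p adjusted 0.182), and with the exon length trend of each tumor subtracted -0.83 (exact permutation p adjusted 0.0706). Smc3/Bcl6 tumors 1 and 2, the lowest in Il21r at 221 CPM each, had the highest plasma cell scores, 6.74 and 6.98 mean log2 CPM, and Smc3/Bcl6 tumor 3 had the highest Il21r and the lowest score, 5.62. The negative sign was not particular to Il21r. With the same score r was -0.75 for Il2ra (exact permutation p = 0.025, adjusted 0.111) and -0.65 for Il7r (exact permutation p = 0.0609, adjusted 0.203). Within the Smc3/Bcl6 tumors these were -0.94 and -0.85, and in the 7 tumors without the mesenteric label -0.89 and -0.88. Without the 2 farthest tumors they were -0.64 and -0.44.

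Il9r had no relation past the adjustment with either B-cell or T-cell markers. With the B-cell score its r was 0.44 (exact permutation p = 0.235, adjusted 0.409) and its rho 0.57 (exact permutation p = 0.121, adjusted 0.284), and r was 0.16 without the 2 farthest tumors. With the T-cell score its r was -0.55 (exact permutation p = 0.127, adjusted 0.281) and its rho -0.68 (exact permutation p = 0.0503, adjusted 0.183), and r was -0.60 without the 2 farthest tumors. The opposite signs stand beside an r of -0.78 between the B-cell and T-cell scores themselves (exact permutation p = 0.0143, adjusted over 6 score pairs 0.086, with rho -0.72, exact permutation p = 0.0369, adjusted 0.221, and r -0.82 without the 2 farthest tumors). With plasma cell markers the r of Il9r was 0.55 and with myeloid markers -0.10, with adjusted exact permutation p of 0.281 and 0.883. Il4ra, Il6ra, Il10ra and Il13ra1 had no relation past the adjustment with any score. None of the 10 receptors had a B-cell relation past it either, the farthest being Il2rb at -0.77 (exact permutation p = 0.0165, adjusted 0.103).

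**Figure D3:**
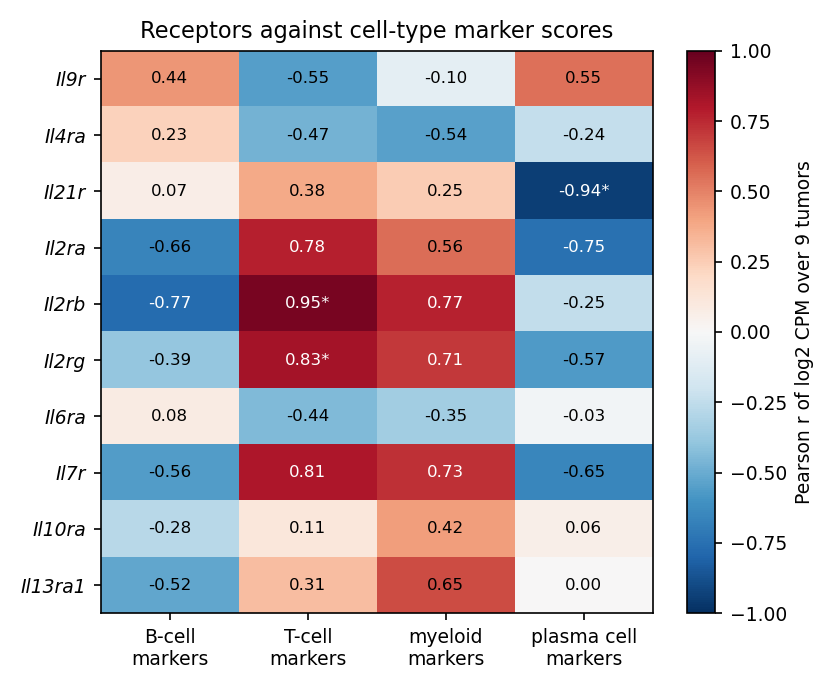
Pearson r over 9 tumors between log2 CPM of each receptor (rows) and the mean log2 CPM of 4 marker lists (columns), where red is positive, blue negative, and a star marks an exact permutation p below 0.05 after adjustment over the 40 relations. Il2rb (0.95) and Il2rg (0.83) with T-cell markers and Il21r with plasma cell markers (-0.94) carry the stars, and the B-cell column has none.

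**Figure D4:**
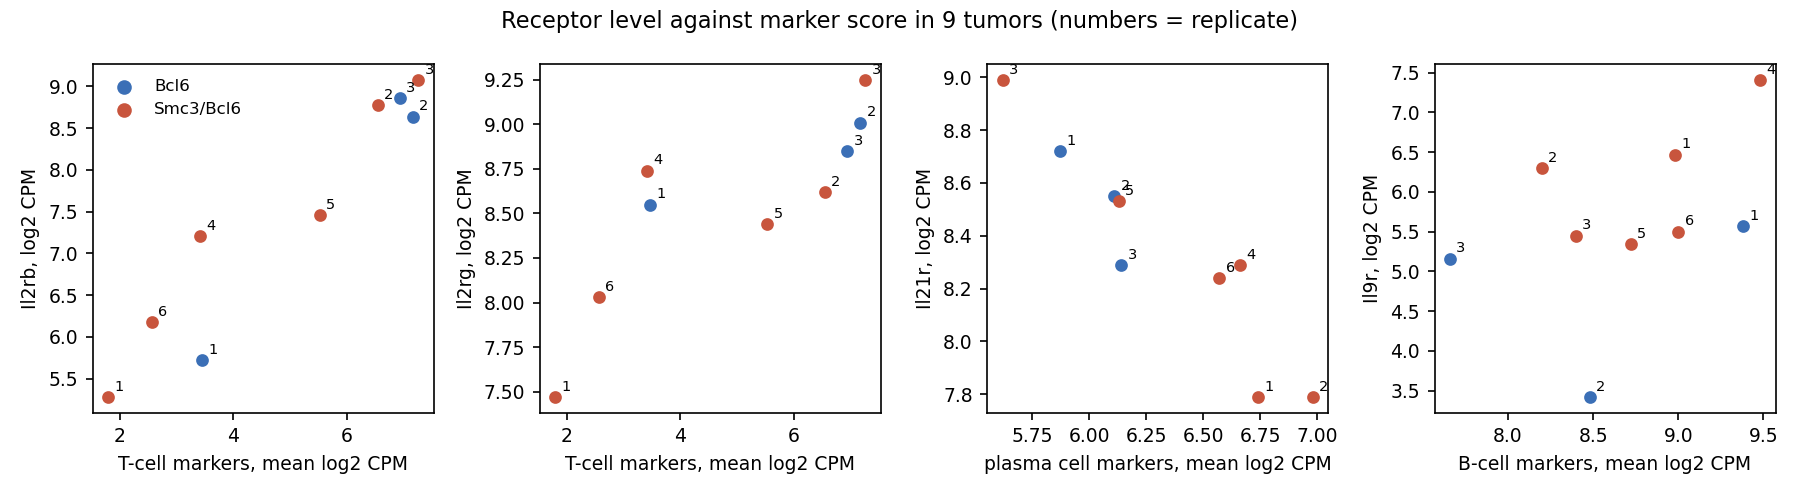
Log2 CPM of 4 receptors (vertical axes) against the mean log2 CPM of the marker list named on each horizontal axis, 1 point per tumor with its replicate number, Bcl6 in blue and Smc3/Bcl6 in red. Il2rb and Il2rg rise with T-cell markers, Il21r falls with plasma cell markers, and Il9r (r 0.44) shows no clear line with B-cell markers.

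The receptors were also related to each other, in 45 pairs, of which 7 had an exact permutation p below 0.05 for Pearson's r before any adjustment. The 3 pairs with the smallest p join chains of the gamma chain family. Il2ra and Il7r had r 0.90 (exact permutation p = 0.00126) and rho 0.82 (exact permutation p = 0.0108). Il2rg and Il7r had r 0.86 (exact permutation p = 0.00187) and rho 0.80 (exact permutation p = 0.0138). Il2rb and Il2rg had r 0.83 (exact permutation p = 0.00271) and rho 0.82 (exact permutation p = 0.0108). With Benjamini-Hochberg adjustment over the 45 pairs, their exact permutation p was 0.0406 for each r, but 0.121, 0.124 and 0.121 for rho. Without the 2 tumors farthest in the first gene of each pair, r was 0.79, 0.66 and 0.84. Il9r had negative values with both low chains, r -0.58 and rho -0.85 with Il2ra (exact permutation p = 0.0953 and 0.00607) and r -0.56 and rho -0.70 with Il7r (exact permutation p = 0.106 and 0.0433). None of these passed the same adjustment, with adjusted exact permutation p of 0.306 and 0.121 for Il2ra and 0.318 and 0.177 for Il7r.

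The rest of the pathway was followed in 72 genes, of which 61 were tested, 1 was past the thresholds and higher in Smc3/Bcl6 tumors and 0 were lower. A single gene of 61 is near the 1.25% of all genes tested, and the list was chosen with earlier results known. That gene was Ighe, the IgE constant region, whose germline transcript is a target of IL-4 signalling. Ighe had 18.4, 28.5 and 38.7 CPM in the Bcl6 tumors and 39.2 to 163 CPM in the Smc3/Bcl6 tumors, so the groups did not overlap, by 38.7 against 39.2 CPM, as was the case for 0.484% of all genes. Counts per gene do not tell germline from switched IgE transcripts. The means were 28.5 ± 10.1 CPM (SD, n = 3) and 108 ± 49.8 CPM (SD, n = 6), with a log2 fold change of 1.92 (standard error 0.49, unadjusted p = 0.00292 and Benjamini-Hochberg adjusted p = 1 by edgeR's quasi-likelihood test). With the replicate block, Ighe was at 1.46 (standard error 0.57) and 5 other receptors of the list were past the thresholds and lower, Il1r2 at -0.97, Il1rl1 at -2.83, Il18r1 at -1.68, Il18rap at -1.35 and Il27ra at -1.23, with Pim2 higher at 0.91. In that fit 1.85% of all genes were past the thresholds and lower, 14.5% of the genes past them were higher, and 4 of the 14 T-cell markers were past them, and the part of the T-cell markers in these values was not tested. The value of Il1rl1 (standard error 1.19) rests on few counts. They were 0, 1 and 95 in Smc3/Bcl6 tumors 1, 2 and 3, and 18, 27 and 87 in Bcl6 tumors 1, 2 and 3.

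Of 32 other interleukin receptors 25 were tested, with a median log2 fold change of -0.15 and 0 past the thresholds in either direction. The highest means per kilobase were those of Il1r2, a decoy receptor for IL-1, at 30.6 CPM, Il10rb, the partner of Il10ra, at 30.4 CPM, and Il27ra at 21.3 CPM. Their order is not firm, since Il1r2 ran from 6.52 to 137 CPM and Il27ra from 7.01 to 161 CPM over the tumors, against 78.0 to 154 CPM for Il10rb. The smallest unadjusted p among them, 0.156 by the same edgeR test, was that of Il17rb. All 11 JAK and STAT genes were tested, with a median log2 fold change of -0.20 and 0 past the thresholds. Jak1, which binds the private chains, had the highest mean at 81.7 CPM per kilobase, and Stat6, the IL-4 signal transducer, had 71.3. The 19 feedback and target genes had a median of 0.05 with Ighe alone past the thresholds, and Ptpn6, a phosphatase that dampens JAK signalling, had 414 CPM per kilobase and Mcl1, a survival factor, 116.

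Most of the ligands had few counts in the same libraries, with Il10 as an exception. Il9 had 0 counts in all 9 tumors, which allows up to 3 counts in each library by counting error, so the ligand of Il9r was not detectable at this depth. Il2 had 51 counts over the 9 tumors together. Of 10 ligands, 6 were tested, with a median log2 fold change of -0.44 and 0 past the thresholds. Il10 had the highest mean per kilobase at 12 CPM, close to the 12.6 of Il9r, and was counted in every tumor, and Il15 had 3.09 and Il4 2.54 CPM per kilobase, and the smallest unadjusted edgeR p was 0.1 for Il6. Il21 had 553 counts in all and was listed at 0 in 1 tumor.

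The genes whose levels were most like that of Il9r were sought among 10351 tested genes with a mean of at least 5 CPM, by Pearson r of log2 CPM over the 9 tumors. The 1st and 99th percentiles of r were -0.66 and 0.69. The 10 most like were Foxred1 (0.92), D730003I15Rik (0.91), Uros (0.90), Sppl2b (0.88), Fbxw5 (0.87), Mcoln1 (0.86), Usp46 (0.86), Vps11 (0.85), Zfp871 (0.84) and Nprl3 (0.84). None of them was past the thresholds between genotypes, and their log2 fold changes lay between 0.12 and 0.67. The 5 most opposite were Klhl25 (-0.90), Nab1 (-0.84), Snapc1 (-0.83), Bcl3 (-0.82) and Gtf2i (-0.82). Of the 15, Nprl3 lies near Il9r on chromosome 11. These are descriptions over 9 points that share libraries and depth, and carry no test.

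Genes around Il9r were looked at after Nprl3 had appeared among the 10 genes most like it, so what follows was chosen after values were seen. Il9r lies beside the alpha-globin cluster of chromosome 11, and 9 tested genes lie within 150 kb of it. Of these 9, 3 were past the thresholds and higher in Smc3/Bcl6 tumors, Rhbdf1, Mpg and Hbq1b, beside 1.25% of all genes, and all 9 had an adjusted p of 1 after Benjamini-Hochberg adjustment of edgeR's quasi-likelihood test. Hbq1b passed the filter on low counts only through Smc3/Bcl6 tumors, so its place in this count carries no weight.

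Rhbdf1, an inactive rhomboid protein, had 12.5, 8.15 and 21.4 CPM in the Bcl6 tumors and 12.8 to 65.5 CPM in the Smc3/Bcl6 tumors, with a log2 fold change of 1.4 (standard error 0.541). Mpg, a DNA glycosylase of base excision repair, had 13.6, 13.0 and 15.8 CPM in the Bcl6 tumors and 16.4 to 32.2 CPM in the Smc3/Bcl6 tumors, with a log2 fold change of 0.63 (standard error 0.302). Its groups did not overlap, by 15.8 against 16.4 CPM, as was the case for 0.484% of all genes. Hbq1b, a globin gene, had at most 0.0945 CPM in Bcl6 tumors and reached 6.19 CPM in Smc3/Bcl6 tumor 4. It had 1.27 and 2.53 CPM in Smc3/Bcl6 tumors 2 and 6, and at most 0.104 CPM in the remaining Smc3/Bcl6 tumors. Nprl3, a subunit of the GATOR1 complex whose introns hold the alpha-globin enhancers, had 43.3 to 50.2 CPM in Bcl6 and 43.9 to 75.9 CPM in Smc3/Bcl6 tumors.

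Since Nprl3 was chosen by its likeness to Il9r, likeness of the neighbours is a description with no test. Over the 9 tumors, Pearson r of log2 CPM with Il9r was 0.84 for Nprl3, 0.81 for Rhbdf1 and 0.74 for Mpg, and 0.78, 0.50 and 0.58 without the 2 tumors farthest in Il9r. Mpg (32226505 to 32232700, plus strand) lies within the span of Nprl3 (32225628 to 32267707, minus strand). Counting by strand was not given, so the values of Mpg and Nprl3 may not be separate, which was not tested. The alpha-globin genes, which lie beyond Mpg, had an r of 0.21 for Hba-a1 and 0.19 for Hba-a2, while Hba-a1 ranged from 7.76 to 1910.2 CPM. Of the other 4 neighbours, Hbq1b had an r of 0.63, Snrnp25 0.31, Nsg2 -0.44 and Sh3pxd2b -0.62. Red-cell RNA was present in varying amount, with a mean log2 CPM of 7 erythroid markers from 2.01 to 5.52 in Bcl6 and from 2.47 to 9.54 in Smc3/Bcl6 tumors, and its r with Il9r was 0.32 (exact permutation p = 0.405, with rho 0.18, exact permutation p = 0.644, and r -0.07 without the 2 farthest tumors). Its part in the values of these genes was not tested.

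**Figure D5:**
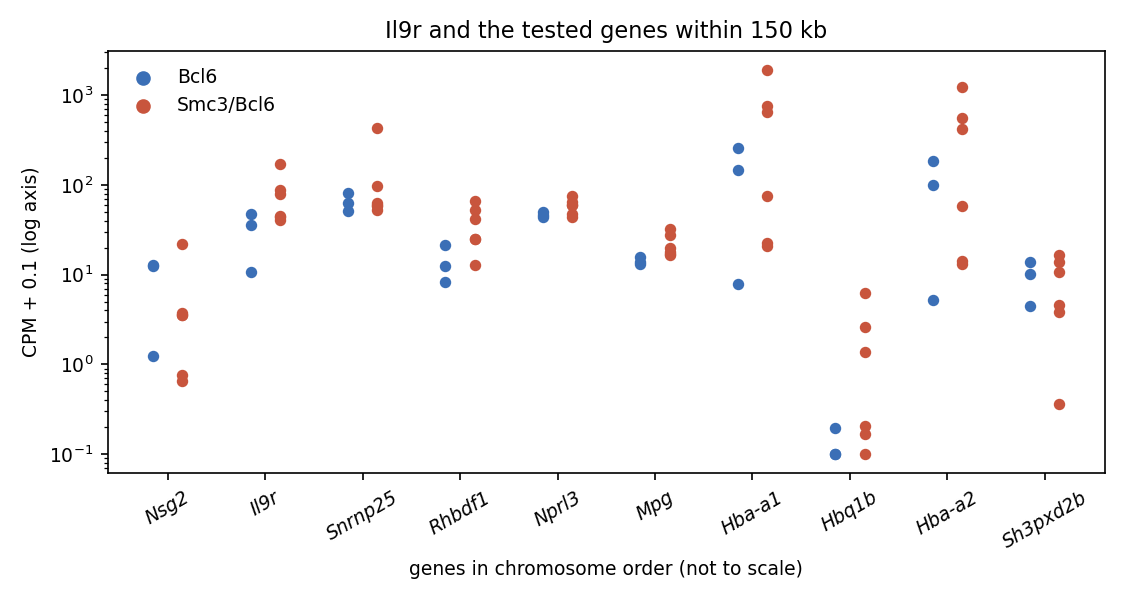
CPM plus 0.1 (log axis) of Il9r and the 9 tested genes within 150 kb, in chromosome order but not to scale, 1 point per tumor, Bcl6 in blue and Smc3/Bcl6 in red. Mpg does not overlap between the genotypes (up to 15.8 against 16.4 and more CPM), as for 0.484% of all genes, Rhbdf1 and Il9r overlap, and Hba-a1 spreads from 7.76 to 1910.2 CPM.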

How the data were processed

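RNA of 9 tumors was sequenced with Illumina TruSeq kits. The authors ran nf-core/rnaseq on the reads, with STAR for alignment to mm10 and featureCounts for counting on GENCODE genes, and deposited the raw counts. Counting by strand was not given in the sources used here. The table had 0 columns without a sample. Positions and exon lengths came from GENCODE M21 (GRCm38), which held 97.9% of the identifiers. Groups and replicate numbers came from the labels.

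All genes were fitted with edgeR 4.0.16 in R 4.3.3 (TMM, edgeR's filter on low counts, quasi-likelihood test, Benjamini-Hochberg adjustment over 14057 genes). A gene was past the thresholds at an unadjusted p under 0.1 with a log2 fold change beyond 0.56 in either direction. CPM used TMM-scaled library sizes and log2 CPM a prior count of 2. Scores were compared by exact two-sided permutation over 84 splits of the tumors (smallest p 0.0238), and correlations by exact two-sided permutation over all orders of the tumors. Alternatives were DESeq2 1.42.0, limma 3.58.1 with quality weights, other scalings, no filter, the tissue label, an exon length offset (lowess span 0.3), a replicate block and each tumor left out. The length offset together with the block, and the adjustment of correlations over all genes, were added after seeing the data. Fits were tested on simulated data with planted changes larger than those of the receptors. That check does not show how well changes of the sizes reported here are recovered.

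Deviations from the group means correlated between the tumors numbered 1, 2 and 3 at 0.443, 0.113 and 0.155. The highest value was that of tumor 1, where both tumors carry the mesenteric label. Correlations between tumors of different numbers were not computed, so these values do not show that equal numbers pair the tumors. The labels give no source for a pairing, and the replicate block was run as an alternative only. The labels do not say whether tumors share a litter, so p-values measure the spread between these samples. The receptors and gene lists were chosen with earlier results of these data known. Named genes were all 10 receptors and, in the pathway lists, genes past the thresholds, the 3 highest per kilobase and the smallest p of each list, then the 10 genes most like Il9r and the 5 most opposite, and 1 gene that this rule names is not reported here. Genes lower or higher under the replicate block and the neighbours of Il9r were named after their values were seen.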

Additional observations from a re-analysis of the deposited data

Results flagged for a closer look

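Of 20 measures, the 10 receptors and 10 marker scores in the 6 Smc3/Bcl6 tumors, 1 held a tumor far from the others. The myeloid marker score of Smc3/Bcl6 tumor 1 was the lowest, and its gap to the next tumor was 0.796 of the whole range, above Dixon's 95% value of 0.625 for 6 tumors. Chance alone gives about 1 such tumor in 20 measures. This tumor was also the lowest of the 9 in Il2rb, Il2rg, Il2ra and Il7r, and carries the mesenteric lymph node label.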

How the results depend on the processing

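Over all genes, 176 were past the thresholds and higher and 119 lower. The higher and lower counts were 342 and 101 with DESeq2, 105 and 166 with library totals, 558 and 808 without the filter, 642 and 1002 with limma, 123 and 185 with the tissue label, 42 and 247 with the replicate block, 73 and 255 with the block and length offset, and 81 to 327 and 59 to 314 with each tumor left out. The share of higher genes among those past the thresholds, 59.7%, was 38.7% with library totals, 39.1% with limma and 14.5% with the replicate block, and the median log2 fold change of all genes ran from -0.08 with the block to 0.09. Receptors past the thresholds were 1 higher and 0 lower, while 3 were lower with limma (Il2rb, Il2rg, Il7r), 2 with the block and 2 with the block and length offset, and 0 to 2 were higher and 0 to 2 lower with each tumor left out. For pathway genes, 1 higher and 0 lower became 2 higher and 2 lower without the filter, 3 and 10 with limma, 2 and 5 with the block, 2 and 5 with the block and length offset, and 1 to 2 and 0 to 6 with each tumor left out, and 1 was lower with DESeq2, library totals or the length offset, and 2 with the tissue label. The log2 fold change had the other sign in 3 of 18 alternatives for Il4ra, 1 for Il2ra, 2 for Il2rb, 4 for Il6ra, 2 for Il10ra and 4 for Il13ra1. The log2 fold change of Il9r was positive under all alternatives run, from 0.89 to 1.75. Il9r had been selected on this difference in these same libraries, and the alternatives refit the same counts. Its constant sign is therefore a description and no support for the difference.

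The B-cell score difference of 0.29 ranged from -0.13 (without Bcl6 tumor 3) to 0.73 with each tumor left out and was 0.02 with the block. The T-cell difference of -1.33 was -0.65 with the block and ranged from -2.53 to -0.68 with each tumor left out. The myeloid difference of 0.04 was -0.07 with library totals, -0.0069 with a prior count of 0.5, -0.49 with the block, and -0.71 to 0.74 with each tumor left out. The 3 score relations past the adjustment became 1 with library totals, 1 with the length trend subtracted, 0 in Smc3/Bcl6 tumors only, 1 when adjusted over all genes, and 2 to 5 with each tumor left out. With the block, r was 0.77 for Il2rb and 0.99 for Il2rg with T-cell markers and -0.99 for Il21r with plasma cell markers, over 3 differences and with no test. The causes were not tested. With 3 Bcl6 tumors the exact tests of scores cannot go below 0.0238, and Il9r had at least 195 counts in every tumor.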

Other observations

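Il15ra, the neighbour of Il2ra on chromosome 2 and the private chain for IL-15, had a Pearson r of 0.86 and a Spearman rho of 0.78 with Il2ra over the 9 tumors, and r was 0.71 without the 2 tumors farthest in Il2ra. It was looked at after its values were seen, so this is a description with no test. For marker lists that were not related to the receptors, the difference of the mean log2 CPM was taken as Smc3/Bcl6 less Bcl6. It was -0.35 for germinal center B-cell, -0.56 for NK-cell, -0.87 for neutrophil, -0.80 for mast cell and eosinophil and 0.21 for stromal markers, with exact two-sided permutation p from 0.298 to 0.81.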
